A study of Mus musculus with 4 samples.

Results

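Tek and Tie1, the Tie receptors of blood vessels, measured 2.53-fold and 2.02-fold higher in Etv2-Venus positive than in Etv2-Venus negative Flk-1+ cells, with arrays that did not overlap but a limma adjusted p of 0.0698 for each, above the threshold of 0.05. The angiopoietin genes Angpt1 and Angpt2 gave signals below the array median in both populations. The genes described here are the 2 Tie receptors Tek and Tie1, the ligands Angpt1 and Angpt2, and Ptprb, the receptor phosphatase that acts on Tek. They were chosen by name, and each was read on the probe set that carried its symbol alone and had the highest mean over the 4 arrays. All 5 were found among the 18193 genes measured, on 9 probe sets in all.

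Flk-1+ Etv2-Venus positive cells, on 2 arrays, were compared with Flk-1+ Etv2-Venus negative cells, on 2 arrays. Both were sorted from one kind of culture, TT2 mouse embryonic stem cells in which one Etv2 allele carries the fluorescent protein Venus, so that Venus follows the activity of the Etv2 locus and both populations hold the same modified allele. The labels give day 5 of differentiation on OP9, stromal feeder cells from mouse bone marrow. Flk-1, the product of Kdr, is a VEGF receptor present on mesoderm with the potential to form vessels and blood, and Etv2 belongs to the ETS transcription factors and acts early in those lineages. The comparison asks how the Tie system differs within Flk-1+ mesoderm according to reporter activity. The labels name 1 cell line and do not state whether each array stands for its own culture, so a p-value here reflects array-to-array spread that could be purely technical.

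Tek, also called Tie2, is a receptor tyrosine kinase of endothelial cells and of some blood-forming cells. Angpt1, made mainly by mesenchymal and mural cells around vessels, activates it, and Angpt2, made by endothelial cells themselves, acts as a weaker and context-dependent ligand. Tie1 is the related receptor that pairs with Tek and modulates its signal without binding angiopoietins strongly. Ptprb, also called VE-PTP, removes phosphate from Tek and associates with VE-cadherin. In the mouse embryo the receptors appear as endothelium forms, and both are needed for vessels to mature and remain intact.

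The upstream promoter sequences of the 2 receptors are shown because both genes were higher in the cells with Etv2 reporter activity and Etv2 is an ETS factor. They are from RefSeq, on the mouse build GRCm38.p6, and cover the 250 bases before the annotated start, printed 5′ to 3′ on the gene's strand. Capitals mark GGAA, the core of ETS motifs, on either strand, so that TTCC marks a copy on the opposite strand. Tek lies on the plus strand, with the window at chr4:94739039-94739288, and Tie1 on the minus strand of the same chromosome, at chr4:118489850-118490099.
Tek: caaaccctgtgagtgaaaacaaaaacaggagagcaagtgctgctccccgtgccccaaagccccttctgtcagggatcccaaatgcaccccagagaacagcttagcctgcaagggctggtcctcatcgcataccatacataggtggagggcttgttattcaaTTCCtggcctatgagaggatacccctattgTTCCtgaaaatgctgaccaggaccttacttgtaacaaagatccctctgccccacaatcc
Tie1: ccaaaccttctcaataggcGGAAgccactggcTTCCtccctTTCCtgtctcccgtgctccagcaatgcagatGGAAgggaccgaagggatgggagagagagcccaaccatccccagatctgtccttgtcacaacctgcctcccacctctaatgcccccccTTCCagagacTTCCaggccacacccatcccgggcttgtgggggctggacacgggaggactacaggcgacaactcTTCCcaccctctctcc

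The Tek window held 2 copies of GGAA, both on the opposite strand, and the Tie1 window held 7, of which 2 were on the gene's strand. At least 1 copy was present in 93.4% of the 32851 promoter windows of the same length, with a median of 3 copies, and 3.82% of windows held 7 or more. The longer form GGAAG, which contains GGAA, was searched on both strands. It occurred 6 times in the Tie1 window and 0 times in the Tek window, where 64.1% of all windows held at least 1 and 0.344% held 6 or more. The composite AACAGGAA, which joins part of a forkhead motif to GGAA, was in neither window and in 2.25% of all windows. The windows of Tie1 and Tek had GC contents of 60.4% and 51.2%. A match is a description of these letters only. Promoter sequences of Ptprb, Angpt1 and Angpt2 were not used here.

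The values are the authors' log2 expression values per probe set, made with RMA (robust multi-array average), so a difference of 1 log2 unit is a 2-fold change. Medians over all probe sets were 5.46 and 5.49 log2 units on the Etv2-Venus positive arrays and 5.50 and 5.52 on the negative arrays. Such values are relative and compressed near background, and the small number of arrays limits the precision. Etv2 itself measured 12.64 and 12.41 in the positive cells, against 12.03 and 11.87 in the negative cells, and Kdr averaged 12.73 ± 0.12 in the positive and 12.60 ± 0.12 in the negative cells (SD, n = 2 each). Both positive arrays lay above both negative arrays for Etv2, in the direction of the sort labels, and its signal was high in both populations. The Etv2 difference was 0.57 log2 units (SE 0.13, 1.49-fold, limma adjusted p = 0.185). Pdgfra, a receptor of early mesoderm, averaged 8.11 ± 0.62 and 9.76 ± 0.49 (SD, n = 2 each) in the positive and negative cells. Its difference was -1.65 log2 units (SE 0.38, limma adjusted p = 0.195).

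Among the receptors, Tek gave 9.42 and 9.11 log2 units on the Etv2-Venus positive arrays, against 8.01 and 7.84 on the negative arrays. Both positive arrays lay above both negative arrays, and the gap between the populations was several times the gap between arrays of one population. The difference was 1.34 log2 units (SE 0.14, 95% interval 0.96 to 1.72, 2.53-fold, n = 2 arrays per population). Tek stood at place 7 of 18193 genes when these were ordered from the largest positive difference down. Its adjusted p in limma, with Benjamini-Hochberg adjustment over all genes, was 0.0698 and did not pass 0.05.

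Tie1 gave 6.72 and 6.88 log2 units in the positive cells, against 5.73 and 5.84 in the negative cells. The arrays again did not overlap, and on the negative arrays the signal lay close to the array median. The difference was 1.01 (SE 0.11, 95% interval 0.73 to 1.29, 2.02-fold, n = 2 arrays per population). It stood at place 97 by size of difference, and without 1 array the difference ran from 0.93 to 1.10, on both sides of 2-fold. Tie1 and Tek shared the same limma adjusted p of 0.0698, so neither was called. The smallest adjusted p of any gene was 0.0670.

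Ptprb, the phosphatase, gave 7.18 and 7.13 log2 units in the positive cells, against 6.80 and 6.69 in the negative cells. The arrays were apart, with a smaller gap than for either receptor. The difference was 0.41 (SE 0.09, 95% interval 0.16 to 0.66, 1.33-fold, n = 2 arrays per population), and the limma adjusted p was 0.203. The 95% interval for Ptprb lay below those of Tek and Tie1, but the differences between genes were not tested. A second Ptprb probe set gave 7.04 and 6.70 in the positive cells, against 6.53 and 6.15 in the negative cells. Its difference of 0.53 had the same direction as the brightest probe set, with larger gaps between arrays of one population. The third Ptprb probe set was close to the bottom of the scale, at 2.74 and 3.005 in the positive cells and 2.98 and 3.06 in the negative cells, and its arrays overlapped.

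**Figure D1:**
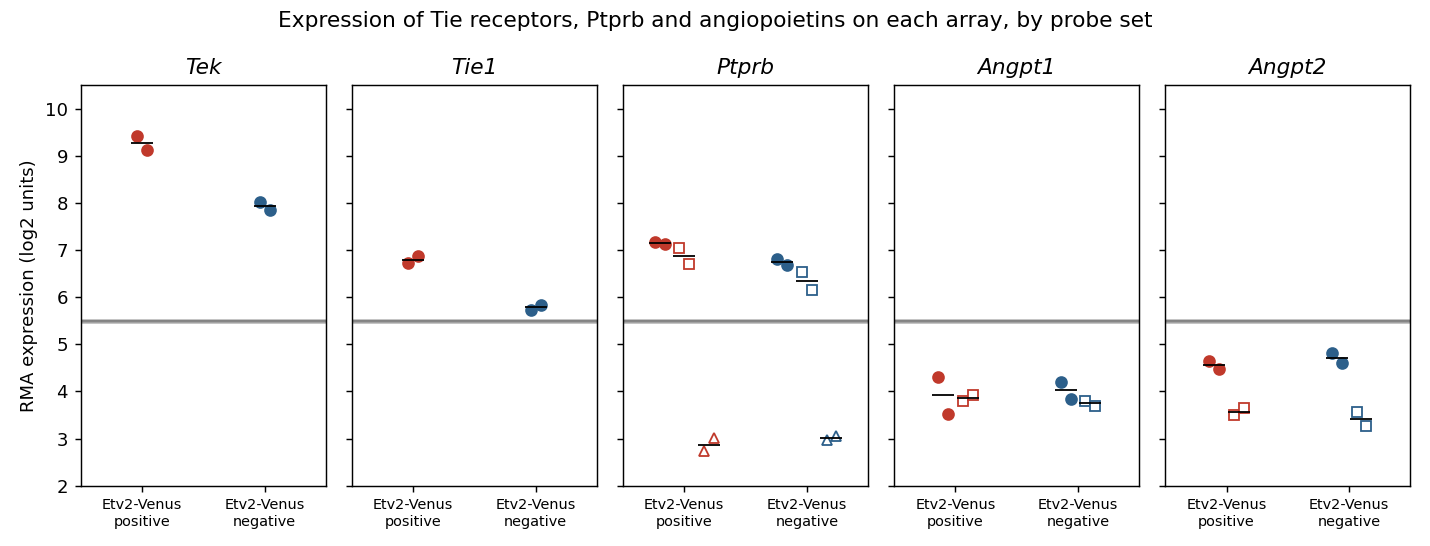
RMA expression in log2 units on each array, with Etv2-Venus positive arrays in red at the left of each panel and negative arrays in blue at the right. Within a pair of points array 1 is left of array 2. Filled circles are the brightest probe set of each gene, open symbols its other probe sets, short lines the means of 2 arrays and the grey band the array medians from 5.46 to 5.52. Tek and Tie1 lie higher on both positive arrays, and every Angpt1 and Angpt2 probe set lies below the band.

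The ligands behaved otherwise than the receptors. Angpt1 gave 4.31 and 3.53 log2 units in the positive cells, against 4.21 and 3.84 in the negative cells. The populations overlapped, and the highest and the lowest value both came from the positive cells. The difference was -0.10 (SE 0.29, 95% interval -0.87 to 0.67, limma adjusted p = 0.957). The interval is wide enough to hold a change of over 1.5-fold in either direction. The other Angpt1 probe set gave 3.79 and 3.92 in the positive cells, against 3.80 and 3.69 in the negative cells, with a difference of 0.11. The 2 probe sets thus differed in sign, and both had overlapping arrays.

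Angpt2 gave 4.65 and 4.47 log2 units in the positive cells, against 4.81 and 4.60 in the negative cells, with overlapping arrays. The difference was -0.15 (SE 0.13, 95% interval -0.48 to 0.18, limma adjusted p = 0.759). On its other probe set Angpt2 gave 3.49 and 3.64 in the positive cells, against 3.57 and 3.26 in the negative cells, a difference of 0.15. The signs of the 2 probe sets again differed. The brightest probe sets of Angpt1 and Angpt2 had higher means than 27.0% and 38.2% of all probe sets on the array, so both ligands were read in the range where RMA compresses differences. Detection calls were not used here, and a low signal does not show that a transcript was absent.

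**Figure D2:**
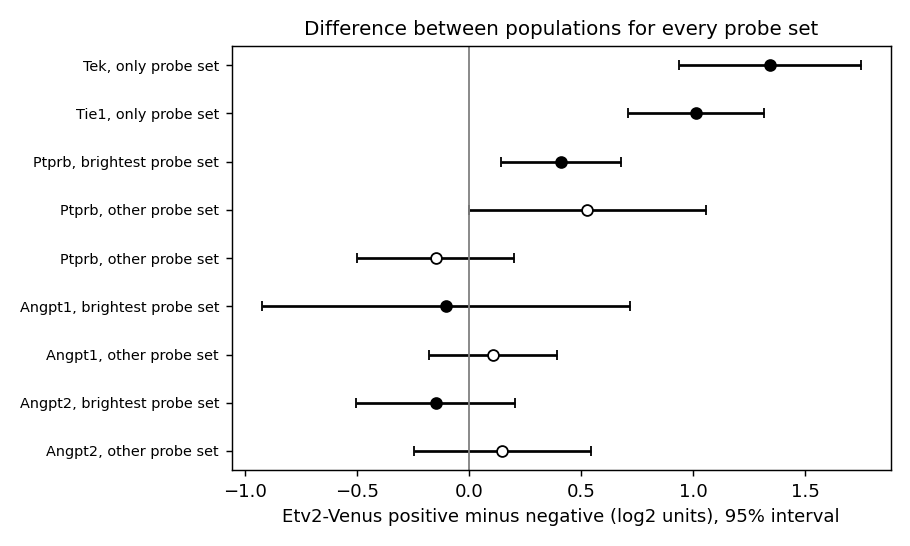
Difference between Etv2-Venus positive and negative cells in log2 units for all 9 probe sets of the 5 genes, with 95% intervals from a limma fit to every probe set. Filled points are the probe sets the text reports first and open points the others. Tek at 1.34, Tie1 at 1.01 and the 2 brighter Ptprb probe sets lie right of 0, and the Angpt1 and Angpt2 probe sets lie on both sides of it.

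Of the 5 genes, 3 had arrays apart in the higher direction and 0 in the lower direction, where 22.4% of all genes had arrays apart and higher and 17% apart and lower. Differences of at least 2-fold in the higher direction were present for 2 of the 5, against a background of 0.599% of all genes, and in the lower direction for 0 of the 5, against 0.423%. With limma at an adjusted p of 0.05, 0 of the 5 and 0% of all genes were called, in either direction. At an unadjusted p under 0.05, 3 of the 5 were higher and 0 lower, where the share of all genes was 7.07% higher and 4.64% lower. The median difference over all genes was 0.01.

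Arrays of the same number were also compared with each other alone. Tek differed by 1.41 between the arrays numbered 1 and by 1.27 between those numbered 2. For Tie1 these differences were 0.98 and 1.04, and for Ptprb 0.38 and 0.44. Angpt2 gave -0.16 and -0.14. Angpt1 gave 0.10 and -0.31, so its direction was not the same for both numbers.

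Whether Tek and Tie1 passed 0.05 depended on how the spread was modelled. When eBayes was run with a trend of variance on mean and in its robust form, limma gave an adjusted p of 0.0431 for Tek and 0.0561 for Tie1, and called 0.445% of all genes higher and 0.17% lower. When only the 10179 genes averaging 6 log2 units or more were tested, it gave 0.0479 for Tie1 and 0.0511 for Tek, and called 0.648% higher and 0.128% lower. The differences themselves were the same under both, since these settings change only the error or the genes tested.

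**Figure D3:**
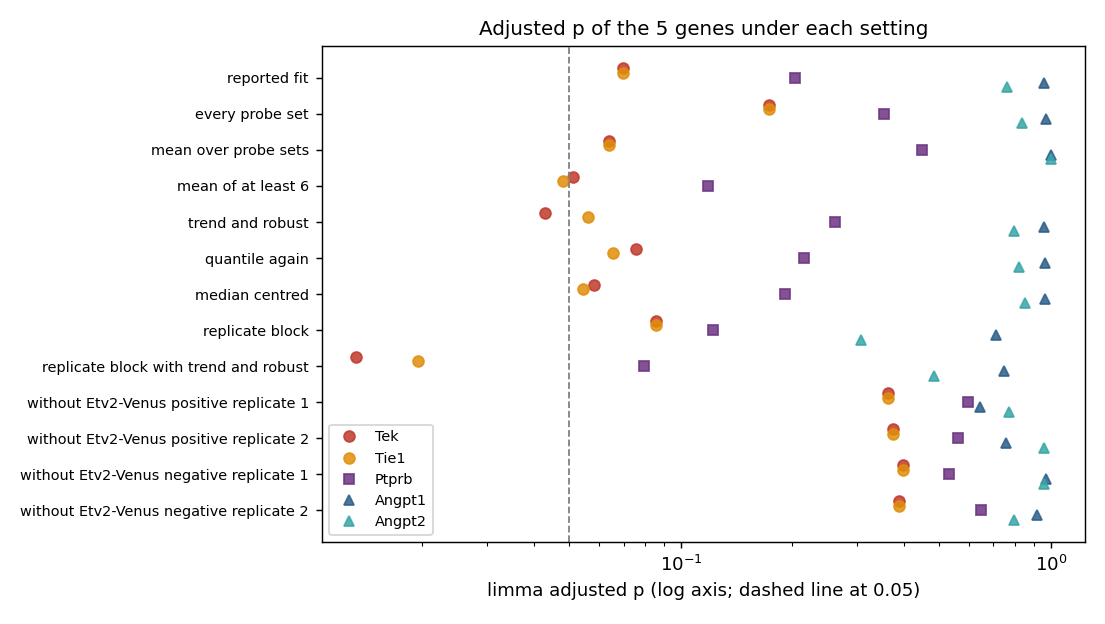
Adjusted p of the 5 genes (horizontal, log axis) in the reported limma fit and under each alternative setting (vertical), with the dashed line at 0.05. Circles are the receptors, squares Ptprb and triangles the ligands, shifted slightly in height so that equal values can be seen. Tek and Tie1 lie close to the line in most settings with all 4 arrays and between 0.364 and 0.399 when 1 array is left out, and the ligands lie at or above 0.308 throughout.

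The genes around the receptors were followed as a list of 45, in 5 roles, of which 39 were measured. With limma adjusted over all genes, 0% of genes were called in either direction, and of the 39, 0 were called higher and 0 lower. Their median difference was 0.04, near that of all genes. The arrays did not overlap for 12 of 39 that were higher (30.8%) and for 4 that were lower (10.3%). For all genes these shares were 22.4% and 17%. At an unadjusted p under 0.05, 5 of the 39 were higher and 1 lower, where 7.07% of all genes were higher and 4.64% lower.

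Of the other ligands and extracellular partners, 7 of 7 were measured. Cdh5, which encodes VE-cadherin, the endothelial junction protein that binds Ptprb, gave 7.98 and 8.19 log2 units in the positive cells, against 6.95 and 7.27 in the negative cells. Its arrays were apart, with a difference of 0.98 (SE 0.15, limma adjusted p = 0.112). Itgb5, an integrin subunit, lay the other way, at 9.67 and 9.85 in the positive cells against 10.28 and 10.55 in the negative cells (limma adjusted p = 0.169). Svep1, an extracellular matrix protein that binds Tie1, differed by -0.20 (SE 0.10). Angpt4, the third angiopoietin of the mouse, was as dim as the other ligands, with means of 4.78 in the positive and 4.59 in the negative cells and overlapping arrays.

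Among 3 metalloproteases that can shed membrane proteins, Adam10 gave 10.97 and 10.89 log2 units in the positive cells, against 10.52 and 10.57 in the negative cells. Its difference was 0.38 (SE 0.09, limma adjusted p = 0.210). Mmp14 differed by -0.13 (SE 0.09), and Adam17 by 0.00 (SE 0.13), with 1 of its 3 probe sets of opposite sign. None of the 3 passed.

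The adaptors and kinases that act at the receptor, of which 10 of 12 were measured, had a median difference of 0.05 and ran from -0.41 to 0.32. Shc1, an adaptor of many receptor kinases, was at 0.32 (SE 0.13), and Tnip2, which binds Tek and restrains NF-kappaB, at 0.17 (SE 0.09). Dok2, an adaptor that docks on activated Tek, was at -0.19 (SE 0.11) and Grb14 at -0.41 (SE 0.22). None passed, and the lowest limma adjusted p among them was 0.449, for Shc1.

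For the PI3K, AKT, ERK and FOXO genes, 10 of 14 were measured, with a median of 0.00 and a range from -0.17 to 0.40. Pik3r1, the regulatory subunit of PI3K that Tek recruits, gave 9.28 and 9.79 in the positive cells against 8.99 and 9.28 in the negative cells. The difference was 0.40 (SE 0.21, limma adjusted p = 0.573). Foxo1, the transcription factor that AKT holds out of the nucleus when Tek is active, was at 0.35 (SE 0.16). Its probe set is of a type that may pick up similar transcripts too, and 1 of its 4 probe sets had the opposite sign. Akt1 was at 0.23 (SE 0.20) and Pik3r2 at -0.17 (SE 0.14).

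Of the 5 roles, genes listed as downstream of Tek spread the most, from -0.76 to 1.04, with a median of -0.03. Nos3, endothelial nitric oxide synthase, gave 8.98 and 8.90 log2 units in the positive cells, against 7.87 and 7.93 in the negative cells. The arrays were apart, and the difference was 1.04 (SE 0.09, 2.05-fold, limma adjusted p = 0.0670), about that of Tie1. Birc5, the survival protein survivin, which also acts in mitosis, was at 0.67 (SE 0.12), and Pdgfb, the growth factor with which endothelium recruits mural cells, at 0.60 (SE 0.13). Klf2 was at 0.24 (SE 0.12). Of these Nos3 alone was called in any setting without a replicate block, with the trend and robust estimation (limma adjusted p = 0.0391) and when only genes averaging 6 or more were tested (0.0429).

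**Figure D4:**
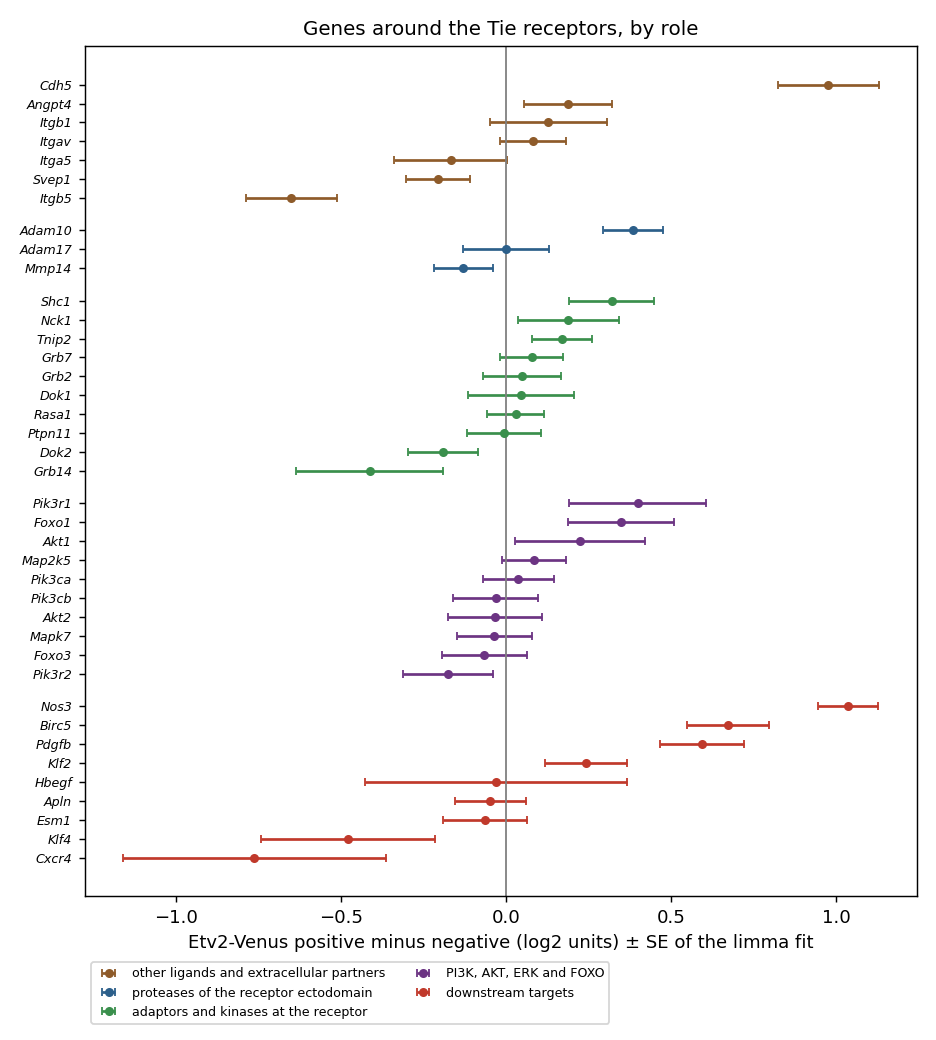
Difference between Etv2-Venus positive and negative cells in log2 units (horizontal) for the 39 measured genes around the Tie receptors (vertical), grouped by role and coloured by it. Points are differences, bars the SE of the limma fit with 2 arrays per population. Cdh5 at 0.98 and Nos3 at 1.04 lie farthest right, and Itgb5 at -0.65 and Cxcr4 at -0.76 farthest left.

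The angiopoietin-like genes encode secreted proteins that resemble the angiopoietins but do not bind Tek. Of 6 listed, 4 were measured and 0 had arrays apart, where 22.4% of all genes were apart and higher and 17% apart and lower. Angptl6 was at 0.32 (SE 0.22), Angptl7 at 0.21 (SE 0.15), Angptl1 at 0.05 (SE 0.40) and Angptl4, on a probe set of the same type as that of Foxo1, at -0.05 (SE 0.29). Angptl1 differed more between arrays of one population, at 6.56 and 7.50 in the positive and 6.62 and 7.35 in the negative cells, than between the populations.

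The genes whose array profiles lay nearest to each receptor were found among 10178 others with a mean of at least 6. Nearness was the root mean square difference of the 4 values after centring each gene on its own mean, and it is a description of 4 arrays with no test. Nearest to Tek were Ackr1, an atypical chemokine receptor of venous endothelium and red cells, at 0.060 log2 units, Flt4, the VEGF receptor of lymphatic and early endothelium, at 0.064, Gcnt2, a glycosyltransferase, at 0.075, Ctla2b at 0.081 and Mmrn2, an endothelial matrix protein, at 0.088. Nearest to Tie1 were the endothelial surface proteins Ecscr and Esam, at 0.028 and 0.035, then Cenpl, a centromere protein, at 0.041, Fam110c at 0.041 and Lrmp at 0.047. No gene was on both lists.

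The 2 receptors were not each other's nearest genes. Their profiles lay 0.255 log2 units apart. Of 10178 genes, this put Tie1 at place 120 in the order from Tek, and Tek at place 343 in the order from Tie1. Besides the larger difference of Tek, they leaned opposite ways between the numbered arrays. Tek was higher on array 1 than on array 2, by 0.31 in the positive and 0.17 in the negative cells, while Tie1 was lower on array 1, by -0.17 and -0.11.

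**Figure D5:**
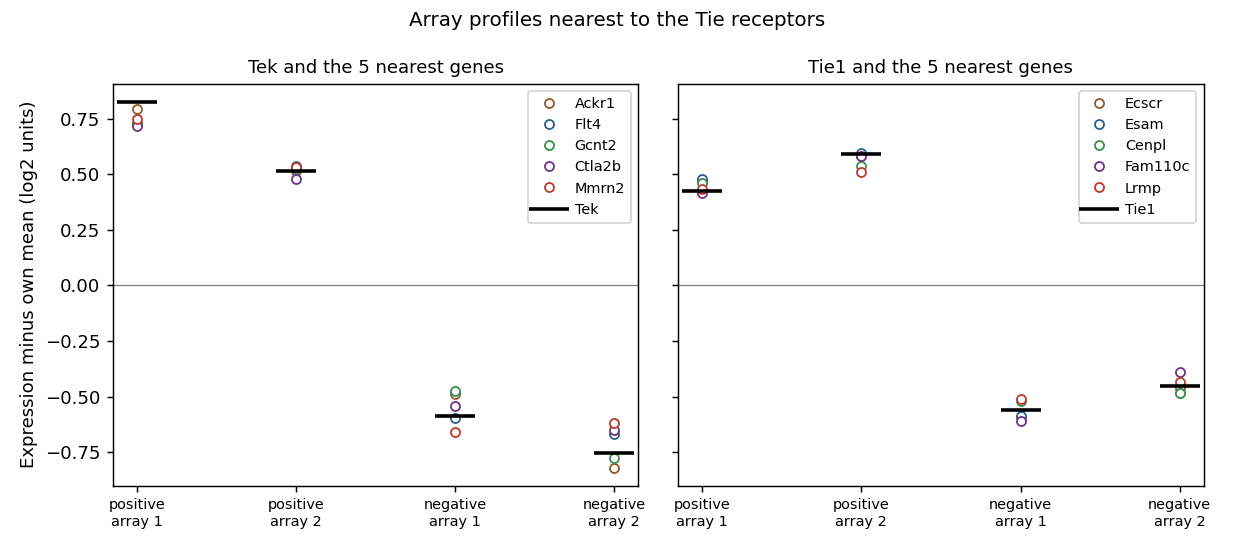
Expression minus the gene's own mean, in log2 units, on the 4 arrays (horizontal) for Tek (left) and Tie1 (right), drawn as black bars, with the 5 nearest genes as open circles. The Tek panel is higher on array 1 of each population for Tek itself, and the Tie1 panel is lower there for Tie1.

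Marker genes of the cell types that could carry these transcripts were read beside them. All of these marker lists were chosen with earlier results of these data known. Their shares beside those of all genes are thus descriptions only. In sorted bulk samples, more cells of a type and more RNA per cell cannot be told apart. Of 22 endothelial markers, 20 had arrays apart and higher (90.9%), against 22.4% of all genes, with a median difference of 1.06. The summed linear signal of these markers was 18022 and 17650 in the positive cells, against 8571 and 8518 in the negative cells. Such sums weigh the brightest genes most. Here the brightest was Tal1, a gene of blood progenitors too, at 12.30 and 12.05 log2 units in the positive cells. In the negative cells Tal1 gave 11.25 and 11.06. The sum thus does not measure endothelium alone. Pecam1, an adhesion molecule of endothelium, averaged 5.85 in the positive and 5.28 in the negative cells. Emcn, a marker of more mature endothelium, was dim, at 3.27 and 3.50 in the positive and 3.50 and 3.26 in the negative cells. With limma 0 of the 22 and 0% of all genes were called, and the differences of these markers ran from -0.13 to 1.44. Their part in the Tek and Tie1 differences was not tested.

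Early mesoderm markers lay the other way, with arrays apart and lower for 11 of 12 (91.7%), against 17% of all genes. With limma 0 of the 12 were called, beside 0% of all genes. These markers had a median difference of -1.41. Their summed linear signal was 7805 and 6229 in the positive cells, against 18602 and 14591 in the negative cells. Their part in the Tek and Tie1 differences was not tested either.

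Blood progenitor markers had arrays apart and higher for 9 of 14 (64.3%) and lower for 3 (21.4%), against 22.4% and 17% of all genes. The summed linear signal of these markers was 3577 and 3722 in the positive cells, against 2330 and 2473 in the negative cells. Itga2b averaged 8.56 in the positive and 7.86 in the negative cells, Runx1 gave overlapping arrays and Ptprc, the pan-leukocyte CD45, was near the bottom of the scale with means of 3.04 and 3.35 in the positive and negative cells. Since some blood-forming cells carry Tek, these values stand beside the Tek result, and their part in it was not tested.

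Mesenchymal and mural cells are known sources of Angpt1. The stroma, fibroblast and adipocyte precursor markers had arrays apart and higher for 0 of 19 and lower for 3 (15.8%). For all genes these shares were 22.4% and 17%, so the lower share was near that of all genes. The summed linear signal of these markers was 4497 and 2313 in the positive cells, against 4792 and 2913 in the negative cells. The difference between array 1 and array 2 thus exceeded that between the populations. The brightest Angpt1 probe set was higher on array 1 by 0.78 in the positive and 0.37 in the negative cells, while the other differed by -0.13 and 0.11. Of the 19 stroma markers, 8 lay above the array median on all 4 arrays and 5 below it on all 4. That median is over all probe sets, while each gene was read on its brightest one. The same share over all genes was not computed, so these counts do not show whether such cells were present. Of the defining markers Col1a1 averaged 5.30 in the positive and 5.84 in the negative cells, Dcn 4.88 and 4.75, and Lum 3.62 and 3.70. Brighter markers of the list included Lpl, at 9.65 and 9.76, and Col1a2, at 8.88 and 9.21. Array 1 exceeded array 2 by 1.83 in the positive and 1.60 in the negative cells for Col1a2. The gaps were 2.35 and 1.96 for Col3a1, but 0.26 and 0.42 for Col1a1.

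Pericyte and smooth muscle markers had arrays apart and higher for 2 of 13 (15.4%) and lower for 4 (30.8%). For all genes these shares were 22.4% and 17%. The summed linear signal of these markers was 3702 and 2833 in the positive cells, against 5301 and 4125 in the negative cells. Of the 13, 8 lay above the array median on all 4 arrays and 3 below it on all 4. As for the stroma markers, these counts have no share over all genes beside them and do not show whether such cells were present. Rgs5 averaged 9.74 in the positive and 10.68 in the negative cells, Acta2 8.69 and 9.10, and Pdgfrb 8.05 and 8.56. The Acta2 probe set is of the same type as that of Foxo1. Mcam, which had the smallest p of this list, lay the other way, at 7.76 and 7.02, with arrays apart. The part of stromal and mural cells in the Angpt1 values was not tested.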

How the data were processed

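Total RNA of sorted cells was labelled with biotin by an Affymetrix 3′ kit, per the labels' protocols. Each probe set has a deposited log2 expression value, for which the submitters' processing notes name RMA and R 2.8.0. The log base was taken from the values. Symbols came from the platform annotation, matched by Entrez identifier to RefSeq genes of GRCm38.p6, used for names. Of 45101 probe sets, 34945 had 1 symbol. Each of 18193 genes was read on its brightest such probe set.

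Tests used limma 3.58.1 (lmFit, eBayes) under R 4.3.3, two-sided, with 2 residual and 2.68 prior degrees of freedom and Benjamini-Hochberg adjustment over all genes. Intervals of single probe sets in the plot came from a fit to every probe set. The fit was also run on simulated arrays with independent errors. That check covered only the size of the estimated differences, not the p-values.

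The genes, the lists and the tests were chosen with earlier results of these data known. Named genes were the 5 genes, Etv2, Kdr and Pdgfra, and up to 4 of smallest p per list. Also named were the 5 nearest to each receptor and fixed defining markers. Pathway genes with no value were not analysed here. Genes named only in captions or as the extremes of a list, such as Cxcr4, were chosen after their values were seen. So were markers named besides the defining ones, such as Tal1, Mcam and Lpl. Alternatives were every probe set, the mean over probe sets, a mean of at least 6, trend with robust estimation, quantile normalization again, median centring, the array number as a block, that block with trend, and leaving out each array. Figures were drawn with matplotlib 3.10.9.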

Additional observations from a re-analysis of the deposited data

How the results depend on the processing

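Tek, Tie1 and Ptprb kept their direction in all 12 alternatives, from 1.19 to 1.497, 0.93 to 1.10 and 0.26 to 0.46 log2 units. Tek passed 0.05 with trend and robust estimation (1.34, limma adjusted p = 0.0431) and Tie1 among genes with a mean of at least 6 (1.01, 0.0479). With the array number as a replicate block, limma adjusted p was 0.0856 for both receptors, at differences of 1.34 and 1.01, 0.122 for Ptprb and changed no call. Block and trend together called Tek (0.0133) and Tie1 (0.0195). Deviations of same-numbered arrays correlated at 0.543 over genes, but with 2 numbers and no label that ties them, the numbers were not taken as pairs. Leaving out 1 array gave 1.19 to 1.497 for Tek, 0.93 to 1.10 for Tie1, 0.35 to 0.46 for Ptprb, -0.25 to -0.04 for Angpt2 and -0.49 to 0.29 for Angpt1. The remaining single array of a population was then assumed to vary like the other population. Angpt1 turned positive without positive array 2 (0.29), without negative array 1 (0.082) and with the mean over probe sets (0.0017), as did Angpt2 with that mean (0.00050). Each ligand's 2 probe sets had opposite signs, so their mean lies near 0. Neither ligand had a value among genes with a mean of at least 6. Of 18193 genes 0 were called in the reported fit, and of the 10179 with a mean of at least 6, 79 were called (66 higher, 13 lower). Of 18193 genes, 112 were called with trend (81 and 31) and 977 with block and trend (616 and 361). Pathway genes called in the same order were 0 of 39, 1 of 34, 1 of 39 and 7 of 39. The 7 were 5 higher and 2 lower.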
